A study of Mus musculus with 8 samples.

Results

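The genes described here are 10 members of the Notch pathway in the mouse aorta: the receptors Notch1, Notch2 and Notch3, the ligands Jag1, Jag2 and Dll4, and the transcriptional targets Hey1, Hey2, Heyl and Hes1. They were picked by gene symbol among the 35896 genes for which counts were deposited, and all 10 had enough counts to be tested among 17182 genes. RNA was sequenced from 8 libraries, 2 in each of 4 groups, and each library held the pooled aortic tissue of 2 male C57BL6 mice (16 mice), so that differences between single animals are not visible. AngII mice received angiotensin II at 2.8 mg/kg/d from osmotic minipumps implanted at 11 weeks of age and were sacrificed when the 2 weeks of infusion ended. AngII+2W and AngII+3W mice had the same infusion and were sacrificed 2 and 3 weeks after its end, and these groups address what persists in the vessel once the peptide is withdrawn. CTRL mice were untreated, age-matched littermates. In the study, controls were taken alongside each of the 3 AngII groups, but the labels do not say from which of these times the CTRL libraries came, and each AngII group is compared with the same CTRL libraries. The labels name no transgene or deleted allele for any group.

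Notch signaling passes between cells in contact. A ligand of the Jagged or Delta-like family on 1 cell binds a Notch receptor on its neighbor, the receptor is cut by an ADAM protease and then by γ-secretase, and the released intracellular part joins Rbpj in the nucleus and switches on repressors of the Hes and Hey families. In arteries, Notch1 and Dll4 are known for arterial endothelial cells, Notch3 and Heyl for smooth muscle cells and pericytes, and Jag1 for both layers of the wall, where it serves smooth muscle differentiation. Hey2 is known for arterial cells and also for the ventricle of the heart.

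Library totals were between 18130441 and 21498200 counts. Levels are given in CPM (counts per 1000000 counts, here with TMM-normalized library sizes). The floor of detection was taken as 3 counts, which is 0.140 to 0.165 per 1000000 counts of the library total without TMM. Every member was above this floor in every library. All markers of smooth muscle (8 of 8), endothelium (10 of 10) and adventitial fibroblasts (6 of 6) were above 0 in the aortas. Markers of leukocytes, adipocytes, nerve, mesothelium and other muscle were also above 0 in at least 1 library. Summed adipocyte markers (5 genes) had 5320 to 6868 CPM in CTRL, 6988 to 8389 CPM in AngII, 4667 to 5003 CPM in AngII+2W and 5979 to 6661 CPM in AngII+3W. The part of fat in the members' levels was not tested. The first AngII+3W library stood apart by its skeletal muscle markers, with a summed level of 1943 CPM for 7 genes against 5.05 to 75.3 CPM in the other 7 libraries. It also had 5923 CPM of cardiac markers.

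Of the 10 genes, the target Heyl fell during the infusion, while no receptor and no ligand passed the test in any of the 6 comparisons between groups. Its close relative Hey2 was lower in AngII without passing the threshold. Genes were tested with the quasi-likelihood F test of edgeR, and a gene was called where the p adjusted over all 17182 genes by the Benjamini-Hochberg method (FDR) was below 0.05. In AngII vs. CTRL, 1 of the 10 members was called, beside 5.10% of all genes called (2.20% as lower), and 2 had an unadjusted p below 0.05, beside 20.2% of all genes. The median log2 fold change of the members was -0.15 beside -0.01 over all genes. The library ranges of AngII and CTRL did not overlap for 4 members, which were higher for Jag1 and lower for Hey2, Heyl and Hes1. Over all genes, 49.2% had ranges that did not overlap, with 24.9% lower and 24.4% higher, so that the members' counts are near or below that background.

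After the infusion no member passed the test against CTRL. In AngII+2W vs. CTRL, 0 of 10 were called, beside 0% of all genes, and 0 had an unadjusted p below 0.05, beside 10.7% of all genes. The ranges did not overlap for 2 members, Jag1 above and Heyl below CTRL, beside 43.8% of all genes. Their median log2 fold change was -0.04, and DESeq2, limma-voom and the likelihood ratio test called none of them either. In AngII+3W vs. CTRL, 0 of 10 were called, beside 0.285% of all genes. Heyl alone had an unadjusted p below 0.05 there, beside 12.5% of all genes, and it was the 1 member called by DESeq2 and by the likelihood ratio test, which called 3.42% and 3.24% of all genes. Ranges did not overlap for 3 members (Jag1, Notch2 and Heyl), beside 38.1% of all genes. The median of the members was -0.22 beside 0.03 over all genes. These comparisons share the CTRL libraries, and a value that is high or low in CTRL enters each of them.

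**Figure D1:**
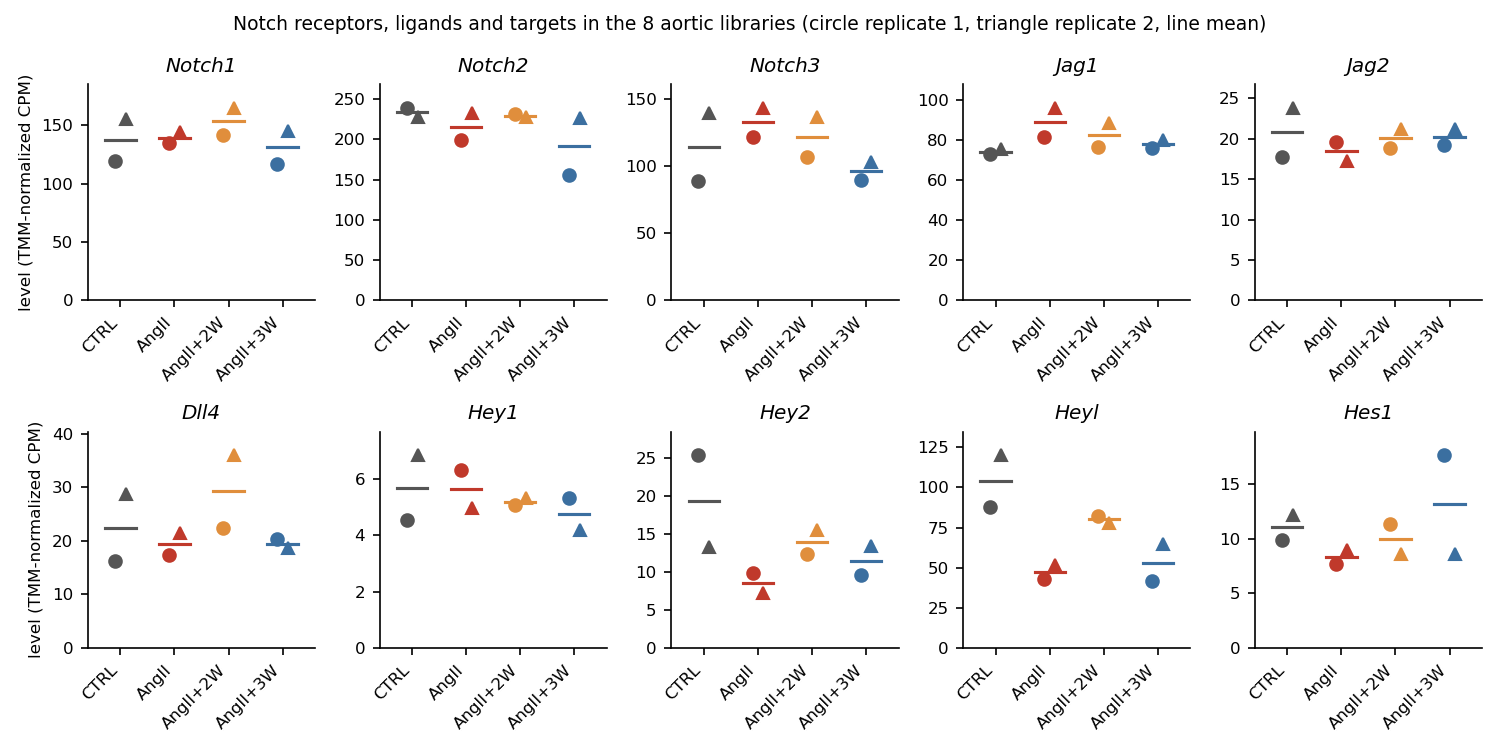
Level of each of the 10 genes in TMM-normalized CPM (vertical axis, from 0) in the 8 libraries by group. Circles are replicate 1, triangles are replicate 2 and lines are group means. Both AngII libraries of Heyl (42.8 and 51.6 CPM) lie below both CTRL libraries (87.5 and 120.3 CPM), while the ranges of Notch1, Notch3 and Dll4 in CTRL overlap with those of every other group.

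Counts grow with the length of a transcript, and levels of different genes were compared per kilobase of merged exons. In CTRL, Notch2 was the most abundant member with a mean of 21.7 CPM per kb, and Heyl followed with 20.3 CPM per kb. Notch3 (14.1), Jag1 (12.8) and Notch1 (9.69) came next on this scale, Dll4 had 5.82, Hes1 5.42, Hey2 4.21 and Jag2 2.99, and Hey1 was lowest with 1.75 CPM per kb. In AngII, Heyl stood at 9.23 CPM per kb. Its rank among the 10 genes went from 2 in CTRL to 5 in AngII, back to 2 in AngII+2W and to 4 in AngII+3W. Notch2 ranked 1 and Hey1 ranked 10 in all 4 groups.

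The receptors are large single-pass proteins that are both the receivers of the signal and the precursors of its nuclear part. Notch1 (chr2:26457903-26516663, minus strand, GRCm38) had 119.8 and 156 CPM in CTRL, 135 and 145 CPM under AngII, 142 and 165 CPM in AngII+2W, and 117 and 146 CPM in AngII+3W. All 4 ranges of Notch1 overlapped, and its log2 fold change against CTRL was 0.02 under AngII (95% interval -0.40 to 0.43, FDR 0.969), 0.15 in AngII+2W (-0.26 to 0.57) and -0.07 in AngII+3W (-0.49 to 0.34).

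Notch2 (chr3:98013527-98150361, plus strand) had 239.6 and 228 CPM in CTRL, 199 and 233 CPM under AngII, 232 and 227 CPM in AngII+2W, and 156 and 227 CPM in AngII+3W. The first AngII+3W library was the lowest of the 8 and is also the library with the skeletal muscle markers. The AngII+3W range lay below that of CTRL, by less than 1 CPM between the nearest libraries (226.9 and 227.7 CPM). The log2 fold change was -0.11 under AngII (-0.55 to 0.33, FDR 0.802), -0.03 in AngII+2W and -0.29 in AngII+3W (-0.73 to 0.15, FDR 0.580). Without the first AngII+3W library the last value was -0.05.

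Notch3 (chr17:32120820-32166852, minus strand), the receptor of the mural cells, had 88.6 and 139 CPM in CTRL, 122 and 143 CPM under AngII, 107 and 137 CPM in AngII+2W, and 89.9 and 103 CPM in AngII+3W. Those of CTRL were nearly as far apart as the extremes of all 8. Its log2 fold change was 0.22 under AngII (-0.32 to 0.76, FDR 0.666), 0.10 in AngII+2W (-0.44 to 0.63) and -0.24 in AngII+3W (-0.78 to 0.30). The intervals of the 3 receptors in AngII all include 0 and run from -0.55 at the lowest to 0.76 at the highest.

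Several annotated non-coding genes share exonic bases with Notch1, Notch2 and Notch3 and with Dll4, 1068 bases at most for Notch1 and the opposite-strand gene 0610009E02Rik. None of them is listed among the counted genes, and whether strand was used in counting is not given in the sources used here, so that their reads could not be told apart from those of the members. The gene Gm30232 shares a stretch of 466 bases with Notch3 at 92.9% identity and had 0 to 3 counts a library.

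Among the ligands, Jag1 had the narrowest intervals of the members. Jag1 (chr2:137081456-137116644, minus strand) had 73.1 and 75.5 CPM in CTRL, 81.6 and 96.4 CPM under AngII, 76.8 and 88.7 CPM in AngII+2W, and 76.1 and 80.1 CPM in AngII+3W. Both libraries of each AngII group were above both CTRL libraries. The log2 fold change was 0.26 under AngII (95% interval -0.05 to 0.57, FDR 0.334), 0.16 in AngII+2W (-0.16 to 0.47, FDR 0.751) and 0.07 in AngII+3W (-0.24 to 0.38, FDR 0.870). None of these passed the test. Across all genes, 24.4% had both AngII libraries above both CTRL libraries.

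Jag2 (chr12:112907819-112929776, minus strand), the second Jagged ligand, had 17.8 and 23.9 CPM in CTRL, and the other 6 libraries lay between 17.2 and 21.2 CPM. Against CTRL it differed on the log2 scale by -0.18 in AngII (-0.58 to 0.23, FDR 0.648) and -0.05 in both AngII+2W and AngII+3W. Dll4 (chr2:119325784-119335962, plus strand), the Delta-like ligand of arterial endothelium, had 16.2 and 28.7 CPM in CTRL, 17.3 and 21.4 CPM under AngII, 22.5 and 36.0 CPM in AngII+2W, and 20.3 and 18.6 CPM in AngII+3W. The group means of Dll4 were highest in AngII+2W, where the second library stood above all others, and the ranges of AngII+2W and CTRL overlapped. Its log2 fold change was -0.21 under AngII (-0.93 to 0.50, FDR 0.768), 0.38 in AngII+2W (-0.33 to 1.09, FDR 0.734) and -0.21 in AngII+3W (-0.92 to 0.51, FDR 0.829). Between AngII+2W and AngII the Dll4 ranges did not overlap, which held for 3 of 10 members and 54.2% of all genes, and the log2 fold change was 0.59 (-0.12 to 1.31, FDR 0.424).

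**Figure D2:**
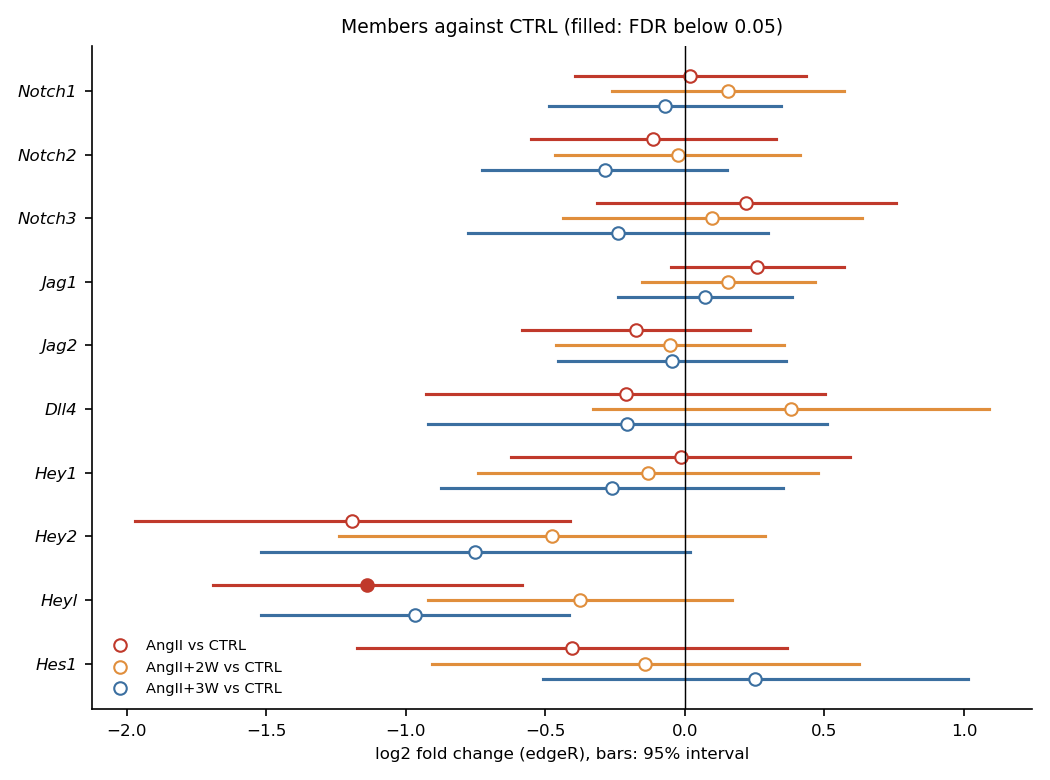
Log2 fold change (horizontal axis, edgeR) of each gene against CTRL in AngII, AngII+2W and AngII+3W, with 95% intervals as bars, and a filled point where FDR was below 0.05. The 1 filled point is Heyl in AngII at -1.14, and the intervals of the 3 receptors and 3 ligands all cross 0.

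Heyl (chr4:123233556-123249875, plus strand) encodes a basic helix-loop-helix repressor that is expressed in mural cells. It had 87.5 and 120.3 CPM in CTRL (103.9 ± 23.2, SD, n = 2), 42.8 and 51.6 CPM under AngII (47.2 ± 6.18), 82.2 and 78.0 CPM in AngII+2W (80.1 ± 2.99), and 41.6 and 64.7 CPM in AngII+3W (53.1 ± 16.4). AngII and AngII+3W overlapped, AngII+2W was above both of them, and CTRL was above AngII+2W with 87.5 and 82.2 CPM in the nearest libraries. Heyl fell by 1.14 on the log2 scale in AngII (SE 0.24, 95% interval -1.69 to -0.59, FDR 0.0395 in edgeR), which is 2.20-fold lower and was seen in both libraries. In AngII+2W its log2 fold change was -0.38 (-0.92 to 0.17, FDR 0.631). In AngII+3W it was -0.97 (-1.52 to -0.42, FDR 0.146), and the interval excludes 0 while the adjusted p does not pass.

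The Heyl call in AngII held in 10 of the 11 alternative settings that kept both libraries of each compared group. It was lost with library totals in place of TMM (FDR 0.0749), where 3.62% of all genes were called. It was also lost when a library of AngII, AngII+2W or CTRL was left out, and fewer of all genes were called in those fits too. Without either AngII+3W library it held, with more of all genes called. Its log2 fold change stayed between -1.35 and -0.90 when a library was left out. For AngII+3W vs. CTRL, the value was -1.38 without the second AngII+3W library and -0.69 without the first. The first is the library with the skeletal muscle markers, and it had the lower Heyl level (41.6 CPM, beside 64.7 CPM in the second).

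The groups after withdrawal were also compared with AngII and with each other. In AngII+2W vs. AngII, 0 of 10 members were called, beside 0.163% of all genes, and Heyl was the 1 member with an unadjusted p below 0.05, beside 15.0% of all genes. Its log2 fold change was 0.76 (95% interval 0.21 to 1.31, FDR 0.190). It passed in a fit of these 2 groups alone (FDR 0.0239), which called 5.34% of all genes. In AngII+3W vs. AngII, 0 of 10 were called, beside 1.61% of all genes, and 0 had an unadjusted p below 0.05, beside 17.8%. Heyl differed by 0.17 (-0.38 to 0.72, FDR 0.746) there. In AngII+3W vs. AngII+2W, 0 of 10 were called, beside 0% of all genes, and Heyl, with -0.59 (-1.14 to -0.04, FDR 0.531), was the 1 member with an unadjusted p below 0.05, beside 8.83% of all genes. DESeq2, limma-voom and the likelihood ratio test also called 0 members in these 3 comparisons. The order of the group means of Heyl was thus CTRL, AngII+2W, AngII+3W, AngII, and the test separated CTRL and AngII.

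Hey2 (chr10:30832359-30842801, minus strand), the relative of Heyl that is also expressed in the heart, had 25.4 and 13.3 CPM in CTRL, 9.77 and 7.16 CPM under AngII, 12.3 and 15.5 CPM in AngII+2W, and 9.57 and 13.4 CPM in AngII+3W. Both AngII libraries were below both CTRL libraries, and the first CTRL library was far above the second. The log2 fold change was -1.19 under AngII (SE 0.34, 95% interval -1.97 to -0.41, FDR 0.0897), -0.48 in AngII+2W (-1.24 to 0.29, FDR 0.673) and -0.75 in AngII+3W (-1.52 to 0.02, FDR 0.413). DESeq2 (FDR 0.0112) and the likelihood ratio test (FDR 0.0178) called Hey2 in AngII, beside 9.27% and 9.96% of all genes, and edgeR's quasi-likelihood test did not. Without the first CTRL library the AngII value was -0.65. That library held 5171 CPM of cardiac markers against 2268 CPM in the second CTRL library, 843 to 1410 CPM in AngII and 82.9 to 239.9 CPM in AngII+2W. The first AngII+3W library had 5923 CPM of the same markers and 9.57 CPM of Hey2. The part of heart tissue in the level of Hey2 was not tested.

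The promoter of Hey2 is shown because, among the members with a promoter sequence, it was the 1 that held the Rbpj motifs searched. RefSeq (GRCm38.p6) gives these 250 bases before its start, at chr10:30842784-30843033 on the minus strand, and the capitals mark the motif GTGGGAA, which lies on the opposite strand, 207 to 201 bases before the start, and contains the shorter motif TGGGAA.
Hey2: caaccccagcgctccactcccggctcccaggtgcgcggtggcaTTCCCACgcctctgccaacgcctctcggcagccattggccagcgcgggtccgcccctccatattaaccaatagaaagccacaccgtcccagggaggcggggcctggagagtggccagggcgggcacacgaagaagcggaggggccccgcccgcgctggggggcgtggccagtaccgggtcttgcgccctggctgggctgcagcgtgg
Promoters of 7 of the 10 members were matched, all but Hey1, Heyl and Hes1. On either strand, TGGGAA was found in 21.6% and GTGGGAA in 5.4% of 32851 promoters of this length. The E-box CACGTG, which is bound by basic helix-loop-helix factors, was in 6.0% of them and in 0 of the 7. A match of letters is a description and no evidence of binding.

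Hey1 (chr3:8663359-8667256, minus strand), the third Hey repressor and the least abundant member, had 4.53 and 6.87 CPM in CTRL, and the other 6 libraries were within that range except the second AngII+3W library at 4.19 CPM. Hey1 had a log2 fold change of -0.02 under AngII (-0.62 to 0.59, FDR 0.984), -0.13 in AngII+2W and -0.26 in AngII+3W (-0.87 to 0.35, FDR 0.727). With 78 to 146 counts a library its relative counting error was the largest of the members. Hes1 (chr16:30064384-30067796, plus strand), a repressor of the Hes family that many cell types express, had 9.89 and 12.2 CPM in CTRL, 7.67 and 9.003 CPM under AngII, 11.4 and 8.59 CPM in AngII+2W, and 17.7 and 8.60 CPM in AngII+3W. The AngII libraries lay below the CTRL libraries, and the highest library was the AngII+3W library with the skeletal muscle markers. The log2 fold change of Hes1 was -0.40 under AngII (-1.17 to 0.37, FDR 0.567), -0.14 in AngII+2W and 0.25 in AngII+3W (-0.51 to 1.01, FDR 0.798). Without that library the AngII+3W value of Hes1 was -0.36.

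The libraries of a group differed by more than counting error, with a chi-square per degree of freedom of 10.2 to 68.5 over the genes, and most members lay on the same side within CTRL. The second CTRL library was higher than the first for 8 of the 10 members, beside 48.7% of all genes, and the exceptions were Notch2 and Hey2. The ratio of the second to the first library ranged from 0.52 for Hey2 to 1.77 for Dll4, with a median of 1.32. In each of the AngII groups the second library was higher for 7 of 10, beside 51.8% (AngII), 50.3% (AngII+2W) and 48.3% (AngII+3W) of all genes, and the median ratio was 1.17 for AngII, 1.14 for AngII+2W and 1.13 for AngII+3W.

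Because aortic tissue was sequenced whole, fewer cells of a type and less RNA per cell cannot be told apart. The summed level of 8 smooth muscle markers was 7955 to 10177 CPM in CTRL, 1934 to 2418 CPM under AngII, 3882 to 4271 CPM in AngII+2W and 2105 to 3716 CPM in AngII+3W. Of these markers 6 of 8 fell in AngII and 3 of 8 in AngII+3W, and in AngII+2W 0 were called with 7 at an unadjusted p below 0.05. A list of 6 smooth muscle genes linked to Notch signaling held Acta2, Myh11, Smtn, Tagln, Cnn1 and Pdgfrb, of which 5 are also among the 8 markers. Of the 6 genes, 4 fell in AngII and 3 in AngII+3W, and in AngII+2W 0 were called with 5 at an unadjusted p below 0.05. Beside both lists, 5.10% of all genes were called in AngII (2.20% as lower), 0% in AngII+2W and 0.285% in AngII+3W. In AngII+2W, 10.7% of all genes had an unadjusted p below 0.05. The mean of the summed markers had the same order of groups as Heyl, with CTRL highest and AngII lowest. The part of smooth muscle in the level of Heyl was not tested.

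Heyl per 1000 CPM of smooth muscle markers was 8.60 and 15.1 in CTRL, 22.1 and 21.3 under AngII, 19.2 and 20.1 for AngII+2W, and 19.7 and 17.4 for AngII+3W. Relative to these markers, which are largely contractile genes, Heyl was therefore lower in CTRL than in any AngII group. Relative to Notch3, which is also expressed by mural cells, Heyl was instead higher in CTRL than in any AngII group. Heyl per CPM of Notch3 was 0.99 and 0.86 in CTRL, 0.35 and 0.36 under AngII, 0.77 and 0.57 for AngII+2W, and 0.46 and 0.63 for AngII+3W. These ratios were chosen after the values were seen and have no test.

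The endothelial markers did not move in this way. Their summed level was 1101 to 1294 CPM in CTRL, 1291 to 1375 CPM under AngII, 1234 to 1474 CPM in AngII+2W and 1156 to 1276 CPM in AngII+3W. In any comparison 0 of 10 were called, with 0 or 1 at an unadjusted p below 0.05. By comparison, 0% to 5.10% of all genes were called and 8.83% to 20.2% had such an unadjusted p. Dll4 per CPM of the endothelial gene Cdh5 was 0.105 and 0.111 in CTRL, 0.0628 and 0.0744 under AngII, 0.0960 and 0.118 for AngII+2W, and 0.0935 and 0.0819 for AngII+3W, with the AngII libraries lowest. This ratio was chosen after the values were seen too, and it rests on 1 of the 10 endothelial markers. Cdh5 itself had 155 and 258 CPM in CTRL and 276 and 287 CPM under AngII. Of the 10 markers, 8 had a log2 fold change above 0 in AngII and 2 had one below 0. Ratios of Dll4 to the other markers were not computed. A list of 8 genes of arterial endothelium, among them Efnb2 and Gja5, had 0 called in the 3 comparisons with CTRL. Beside it, 5.10%, 0% and 0.285% of all genes were called in AngII, AngII+2W and AngII+3W. In the same order, 1, 0 and 1 of the 8 had an unadjusted p below 0.05, beside 20.2%, 10.7% and 12.5% of all genes. In AngII, markers of fibroblasts rose in 2 of 6 cases and markers of leukocytes in 3 of 6, beside 2.90% of all genes called as higher. The summed fibroblast level was 7997 to 12941 CPM in AngII against 1292 to 2140 CPM in CTRL. Most of it was Col1a1, with 6639 and 11178 CPM in AngII and 1359 and 828 CPM in CTRL. All 6 fibroblast markers had a log2 fold change above 0 in AngII. The part of fibroblasts and leukocytes in the members' levels was not tested.

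**Figure D3:**
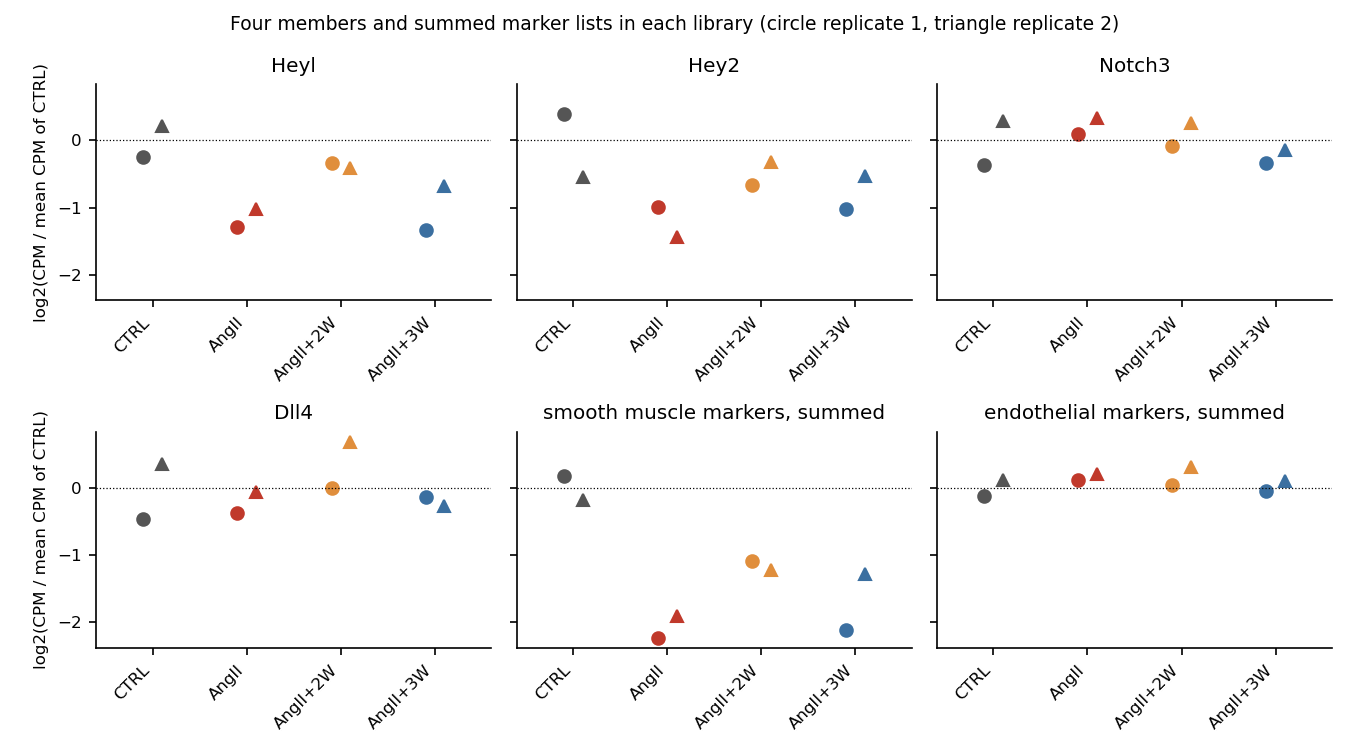
Log2 of the level over the CTRL mean (vertical axis) in each library for Heyl, Hey2, Notch3 and Dll4 and for the summed smooth muscle and endothelial markers. Circles are replicate 1 and triangles are replicate 2. Heyl and the smooth muscle sum are below the dotted CTRL mean in all 6 AngII libraries, and the endothelial sum stays near it, between 1156 and 1474 CPM.

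The other genes of the pathway were taken from a list of 55, of which 51 were tested. In AngII vs. CTRL, 7 of 51 had an unadjusted p below 0.05, beside 20.2% of all genes. There, 1 of 51 was called, beside 5.10% of all genes (2.90% as higher). It was Dtx4, a Deltex E3 ubiquitin ligase that acts on the turnover and trafficking of Notch receptors. The median of the 51 was 0.01 beside -0.01 over all genes. In AngII+2W and AngII+3W vs. CTRL, 0 were called, beside 0% and 0.285% of all genes. At an unadjusted p below 0.05 there were 2 and 4, beside 10.7% and 12.5% of all genes. By DESeq2 the counts were 2, 0 and 2 in AngII, AngII+2W and AngII+3W, beside 9.27%, 2.17% and 3.42% of all genes, so that the counts are near or below that background.

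Dtx4 (chr19:12466338-12501454, minus strand) had 23.8 and 27.9 CPM in CTRL, 58.3 and 63.0 CPM under AngII, 41.7 and 44.9 CPM in AngII+2W, and 17.5 and 27.0 CPM in AngII+3W. The AngII libraries were above all others, the AngII+2W libraries lay between them and CTRL, and AngII+3W overlapped with CTRL. Dtx4 rose by 1.23 on the log2 scale in AngII (SE 0.20, 95% interval 0.76 to 1.7, FDR 0.0198 in edgeR), which is 2.35-fold higher. In AngII+2W its log2 fold change was 0.74 (0.28 to 1.21, FDR 0.299), and in AngII+3W it was -0.22 (-0.69 to 0.25, FDR 0.702). In AngII+3W it was lower than in AngII by a log2 fold change of -1.45 (SE 0.20, -1.92 to -0.97, FDR 0.0264), while the value against AngII+2W was -0.96 (-1.43 to -0.49, FDR 0.329). The AngII call was lost without either AngII, AngII+2W or CTRL library, at FDR 0.0634 to 0.150.

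By role, none of the other groups had a gene past the threshold against CTRL. Among the 10 genes of the cleavage step, which holds the ADAM proteases and γ-secretase, log2 fold changes in AngII ran from -0.26 to 0.56, with a median of 0.17. The 5 genes that glycosylate the receptors ran from 0.03 to 0.48. The 8 corepressors, which act on Rbpj in the absence of the signal, ran from -0.49 to -0.02 with a median of -0.27, and the 8 genes of the nuclear complex from -0.60 to 0.29. These are ranges of values of which none passed the test.

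**Figure D4:**
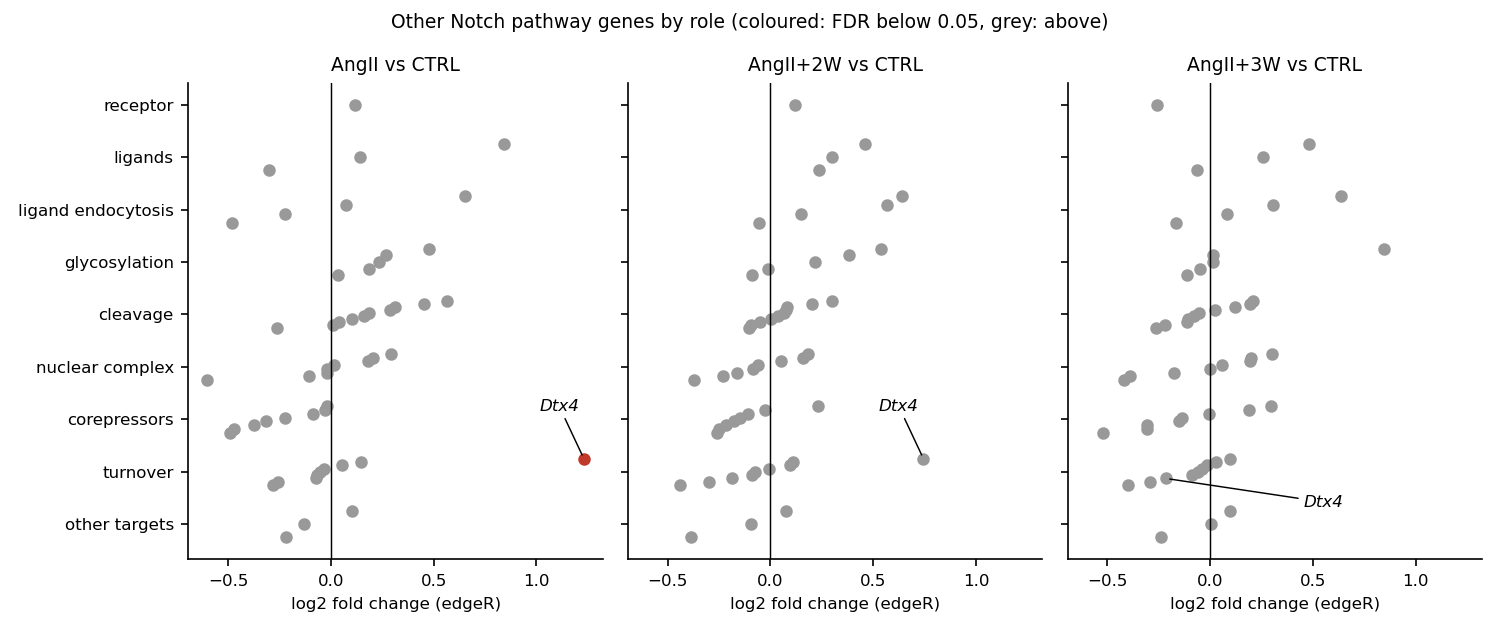
Log2 fold change (horizontal axis, edgeR) of 51 other Notch pathway genes against CTRL, 1 point per gene, in rows by role, for AngII, AngII+2W and AngII+3W. Dtx4 is the 1 coloured point (1.23 in AngII) and lies at 0.74 in AngII+2W and -0.22 in AngII+3W.

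Notch4, the endothelial receptor, had a log2 fold change of 0.12 under AngII (FDR 0.860), 0.12 in AngII+2W and -0.26 in AngII+3W. Its libraries ranged from 35.2 to 61.4 CPM, and the CTRL libraries at 37.4 and 58.2 CPM covered most of that span. Dll1, a Delta-like ligand, had 5.80 and 6.96 CPM in CTRL and 8.65 and 9.19 CPM in AngII+3W, with a log2 fold change of 0.48 there (95% interval 0.03 to 0.93, FDR 0.362). Rbpj, the DNA-binding partner of all Notch receptors, differed from CTRL by 0.21, 0.05 and 0.00 under AngII, AngII+2W and AngII+3W. Nrarp, a target that feeds back on the pathway, differed by -0.22, -0.09 and -0.24. Lfng, which glycosylates the receptors, had 8.48 and 11.3 CPM in CTRL and 12.2 and 15.3 CPM under AngII, with a log2 fold change of 0.48 (-0.05 to 1.00, FDR 0.291). None of these 5 genes passed the test.

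The genes whose pattern over the 8 libraries was most like that of Notch3, Dll4 and Heyl were found by the root-mean-square difference of log2 CPM after each gene was centered on its own mean. For Notch3 they were Sema6b (0.054), Arhgap27 (0.068) and Sipa1 (0.069), where the median over all other genes was 0.37. For Dll4 they were Sema3g (0.15), Col11a2 (0.15) and Ctla2a (0.15), with a median of 0.44. For Heyl they were Reep2 (0.16), Eml2 (0.17) and Bcam (0.17), with a median of 0.57. Bcam is a laminin receptor of the surface of smooth muscle and other cells. Its log2 fold changes against CTRL were -1.12, -0.52 and -0.95 under AngII, AngII+2W and AngII+3W, beside -1.14, -0.38 and -0.97 for Heyl. In the same order, Reep2 had -0.83, -0.27 and -0.77, and Eml2 had -0.83, -0.33 and -0.79. These genes were picked by likeness in the same libraries, so that values near those of Heyl follow from the choice.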

How the data were processed

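RNA of aortic tissue was depleted of ribosomal RNA and sequenced on a single lane, and the authors estimated transcript abundances with Salmon against the Ensembl cDNA of GRCm38 in the ARMOR workflow and summed them to genes with tximeta. The deposited values are expected counts per gene, whole numbers without normalization. Library totals were 18130441 to 21498200. Groups and replicate numbers came from the labels. Each library is a separate pool of mice, p-values measure the spread between these pools, and libraries that share a replicate number hold different mice.

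Genes were filtered with filterByExpr, normalized by TMM and fitted in edgeR 4.0.16 (R 4.3.3) with all 8 libraries in 1 model, 1 coefficient per group and 4 residual degrees of freedom. The quasi-likelihood F test (two-sided, older form) was adjusted over 17182 genes by the Benjamini-Hochberg method. The SE is the log2 fold change divided by the square root of F. The fit was also run on simulated counts with known changes and the same spread for every gene, a simpler setting than these libraries. Alternatives were DESeq2 1.42.0, its size factors, library totals, tests of every gene with at least 1 count or of genes with 10 counts in every library, the likelihood ratio test, limma-voom (limma 3.58.1), a replicate block, a fit of the compared groups, leaving out each library, and, added after the data were seen, the newer and robust quasi-likelihood fits.

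The members and lists were chosen with earlier results of these data known. Named are all members, any gene of the pathway list called in a comparison, 5 fixed genes (Notch4, Dll1, Rbpj, Nrarp and Lfng), and the 3 genes most like each of Notch3, Dll4 and Heyl. Positions, lengths and overlaps are from GENCODE on GRCm38, which holds 35437 (98.7%) of the identifiers. Near copies were searched with BLAST 2.17.0. Other experiments of the study were not analysed here.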

Additional observations from a re-analysis of the deposited data

Results flagged for a closer look

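The log2 fold change of Dtx4 differed between the groups at the end of the infusion and 3 weeks after it. In AngII+3W vs. AngII it was -1.45 (SE 0.20, FDR 0.0264 in edgeR), with 58.3 and 63.0 CPM in AngII and 17.5 and 27.0 CPM in AngII+3W, so that both AngII+3W libraries were lower. The 2 groups share no libraries. The call was lost in a fit of these groups alone (FDR 0.147), where 0 of all 16579 genes tested were called. It held, with more of all genes called, when the second AngII+3W library was left out. With any other library left out it was lost, and fewer of all genes were called. The log2 fold change ran from -1.84 to -1.16 in the fits without a library. No other named gene of the pathway differed in this way by the test.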

How the results depend on the processing

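Of the members called in AngII vs. CTRL (1), 0 were left with library totals, and DESeq2 and the likelihood ratio test gave 2 (Heyl and Hey2). Leaving out a library gave 0 to 1. In AngII+3W vs. CTRL (0), DESeq2 and the likelihood ratio test gave 1 (Heyl), and leaving out a library gave 0 to 1. In AngII+2W vs. AngII (0), the fit of these groups alone gave 1 (Heyl), beside 5.34% of all genes. In AngII+2W vs. CTRL, AngII+3W vs. AngII and AngII+3W vs. AngII+2W the count was 0 under every alternative. Of the pathway genes, DESeq2 called 2 in AngII vs. CTRL (Adam10 and Dtx4) and 2 in AngII+3W vs. CTRL (Mfng and Tle3), the likelihood ratio test called 1 in the latter (Mfng), and leaving out a library gave 0 to 1 in AngII and AngII+2W vs. CTRL. The cause of these shifts was not tested. Over all genes, the AngII vs. CTRL count of 877 was 622 with library totals, 1592 with DESeq2 and 1711 with the likelihood ratio test.

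Leaving out a library turned the direction of members that were not called. In AngII vs. CTRL the log2 fold change of Notch1 ran from -0.16 to 0.21, Notch3 from -0.069 to 0.57, Jag2 from -0.37 to 0.042, Dll4 from -0.57 to 0.25 and Hey1 from -0.28 to 0.31, and Hey1 was 0.0076 with library totals. In AngII+2W vs. CTRL, Notch1 ran from -0.015 to 0.36, Notch2 from -0.061 to 0.021, Notch3 from -0.18 to 0.46, Jag2 from -0.24 to 0.17, Dll4 from -0.0069 to 0.85, Hey1 from -0.39 to 0.20, Hey2 from -0.87 to 0.075 and Hes1 from -0.37 to 0.039. In AngII+3W vs. CTRL, Notch1 ran from -0.29 to 0.12, Notch3 from -0.53 to 0.11, Jag1 from -0.020 to 0.105, Jag2 from -0.24 to 0.17, Dll4 from -0.57 to 0.25, Hey1 from -0.54 to 0.054, Hes1 from -0.36 to 0.62 and Dtx4 from -0.62 to 0.061. Heyl in AngII+3W vs. AngII ran from -0.23 to 0.46, and Hes1 in AngII+3W vs. AngII+2W from -0.22 to 0.77.

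Libraries with the same replicate number came from different mice, and their deviations correlated across genes by -0.04 to 0.25. The labels do not say whether libraries of the same number shared a step of processing, and these correlations cannot exclude it. With the replicate block 1 member was called in AngII vs. CTRL, Heyl at -1.13 (FDR 0.0271 in edgeR). There, 1 pathway gene was called, and the counts of 0 were the same. Over all genes, the block called 4 in AngII+3W vs. CTRL, beside 49 without it. Where a group keeps 1 library, it is assumed to vary like the others. With 2 libraries a group, an interval that excludes 0 marks an unadjusted p below 0.05, and a call needs a larger difference. Hey2 in AngII was not called in edgeR at -1.19 (interval -1.97 to -0.41, FDR 0.0897). Differences of members up to such sizes could go undetected.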
